A study of Mus musculus with 2 samples.

Results

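Thbs4 carried more peaks than any other locus, joined over gaps of up to 10000 bases, in the deposited list of regions where RNA recovered with Flag-Zc3h10 exceeded a GFP control. The gene was taken as chr13:93521000-93565000 (mm9), on the minus strand, so that its 3′ end lies at the lower coordinate. All peaks overlapping that window were members, 13 of the 947 in the list. The window was chosen by its number of called peaks, so the number of peaks, their heights and their enrichment describe the choice and are given with no test. No other peak was near the window. On chromosome 13 the nearest others lay 15192140 bases away on the 3′ side and 1562720 bases away on the 5′ side.

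Thbs4 encodes thrombospondin-4, a secreted glycoprotein whose subunits assemble into pentamers and bind calcium, collagens and other matrix proteins. It is known from tendon, skeletal muscle and heart, where it is part of the extracellular matrix and is found at muscle-tendon junctions. Zc3h10, a protein with CCCH zinc fingers, is the bait. RNA immunoprecipitation sequencing (RIP-seq) recovers a tagged protein together with its RNA, and a peak is a stretch of the genome where reads of the recovered RNA exceed a control library.

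Both libraries came from C2C12 cells, a mouse myoblast line, exposed for 48 h to adenovirus at a multiplicity of infection of 5. In the Flag-Zc3h10 group the virus expressed mouse Zc3h10 with an N-terminal Flag tag, and the antibody label names anti-Flag agarose beads. In the GFP group, labelled wildtype with GFP expression, the virus expressed GFP, and the antibody label reads none, although the protocol describes beads for every RIP sample. Both transgenes were driven by the CMV promoter, and 10 ng of RNA per library was reverse transcribed from oligo(dT) primers. There was 1 library per group, with 10439835 tags used for Flag-Zc3h10 and 10849213 for GFP, so no value below has a replicate check. More Thbs4 RNA in the Flag-Zc3h10 cells and recovery of Thbs4 RNA with the protein cannot be told apart in this design. The list holds no gene levels, so myoblast markers were not checked.

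In the RefSeq table of GRCm38.p6 the protein-coding neighbours of Thbs4 (gene ID 21828) are Serinc5 on the 3′ side and Mtx3 on the 5′ side, and no other gene overlaps it there. The positions of exons, introns and untranslated regions in mm9 were not used here, so no peak is placed on one. The member closest to the 5′ end, at chr13:93564164-93565156 (mm9), runs 156 bases past the upper edge of the window taken for the gene. For that reason the sequence ahead of the gene's start is shown, from RefSeq on GRCm38.p6, minus strand, chr13:92794819-92795068, a position that cannot be compared with the mm9 ones. Capitals mark matches to GGGCGG on either strand, the core of a GC box.

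Thbs4, 250 bases ahead of the start: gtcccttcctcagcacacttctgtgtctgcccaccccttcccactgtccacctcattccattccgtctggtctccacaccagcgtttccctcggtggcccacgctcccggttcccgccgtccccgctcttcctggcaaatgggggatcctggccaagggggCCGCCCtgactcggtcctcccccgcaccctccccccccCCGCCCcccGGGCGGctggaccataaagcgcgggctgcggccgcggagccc

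The window holds 3 such matches, none overlapping another, 1 on the strand shown and 2 on the other. Of all 32851 promoter windows in the table, 32.7% hold at least 1 match in the same 250 bases. The Thbs4 window is 70.8% G and C, against a median of 52.4%. A match is a description of the sequence and not a site.

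The values of each peak are the pileup, the fold enrichment and the control level. The pileup is the number of Flag-Zc3h10 fragments, extended to 500 bases, that cover the summit. The fold enrichment is the authors' ratio of pileup to the local level of the GFP library, and dividing the pileup by it gave the control level. Divided by the scaling of the libraries, the control level came to a whole number of GFP fragments over 500 bases at 12 of the 13 peaks, within the rounding of the deposited ratio (at most 0.0523 fragments). At the other peak it came to 31 fragments over 1000 bases. These counts gave each fold enrichment a 95% exact interval, and each pileup has a 95% exact Poisson interval. Both cover counting error only, and PCR copies without molecular identifiers are not independent counts. The intervals treat the summit and the control window as fixed in advance, though the caller chose them, so 95% is nominal.

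Numbered from the 3′ end, peaks 1 to 4 formed a block of high and nearly equal pileup. Peak 1, chr13:93521685-93522258, had a pileup of 119 fragments (interval 98.6 to 142) over a control level of 34.6. Peak 2, chr13:93524241-93525713, also had 119 fragments, over a control level of 32.7, with its summit 3078 bases from that of peak 1. Peak 3, chr13:93525984-93526992, had 99 fragments over 15.4. Its enrichment of 6.43-fold (interval 3.77 to 11.7) was the highest outside the 5′ end. Peak 4, chr13:93527513-93528503, had 100 fragments over a control level of 24.0, or 4.16-fold. The pileups of these 4 peaks did not differ beyond their counting intervals.

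Peaks 5 to 8, still on the 3′ side, formed the uneven stretch. Peak 5, chr13:93530500-93531327, had 43 fragments (interval 31.1 to 57.9) over a control level of 8.65. Peak 6, chr13:93532322-93534060, was the highest and, at 1739 bases, the widest of the 13. It had 164 fragments (interval 139.9 to 191) over 35.6 and the highest deposited −log10 q of the gene, 50.95. Peak 7, chr13:93536680-93537310, had 85 fragments over 28.9 and the lowest enrichment, 2.94-fold (interval 1.92 to 4.63). Peak 8, chr13:93539091-93539605, the narrowest at 515 bases, had 48 fragments over 9.62. Among the 12 pairs of neighbours along the gene, 4 had pileup intervals that did not overlap, and all 4 lay in this stretch, from peak 4 to peak 8. Pileup and control level went down and up together at each of these steps.

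Peaks 9 to 11 were again alike. Peak 9, chr13:93542726-93543716, had 69 fragments over a control level of 16.4. Peak 10, chr13:93544213-93545304, had 83 fragments over 14.9 and was enriched 5.56-fold (interval 3.64 to 8.70). Peak 11, chr13:93546356-93547504, had 79 fragments over 21.2. The intervals of these 3 pileups overlapped.

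The last 2 peaks stood apart, beyond 12722 bases with no peak. Peak 12, chr13:93560227-93560854, had 55 fragments (interval 41.4 to 71.6) over a control level of 7.70. Peak 13, chr13:93564164-93565156, had the lowest pileup, 34 fragments (interval 23.5 to 47.5), over the lowest control level, 4.81. That control level was 1.72 times the genome-wide background of 2.79 fragments, below which the caller does not let a control fall. These peaks had the highest ratios of the gene, 7.14-fold (interval 3.38 to 17.4) and 7.07-fold (interval 2.75 to 23.1), which rest on 8 and 5 GFP fragments. Summed over both, 89 fragments stood over a control level, scaled to the Flag-Zc3h10 library, of 12.5, a ratio of 7.11 (interval 3.96 to 13.9). Over the 11 peaks on the 3′ side, 1008 stood over a scaled control level of 242, a ratio of 4.17 (interval 3.63 to 4.81). The intervals overlap, and the split at the long gap was made after its values were seen. The list gives no level for the stretch between peaks 11 and 12.

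**Figure D1:**
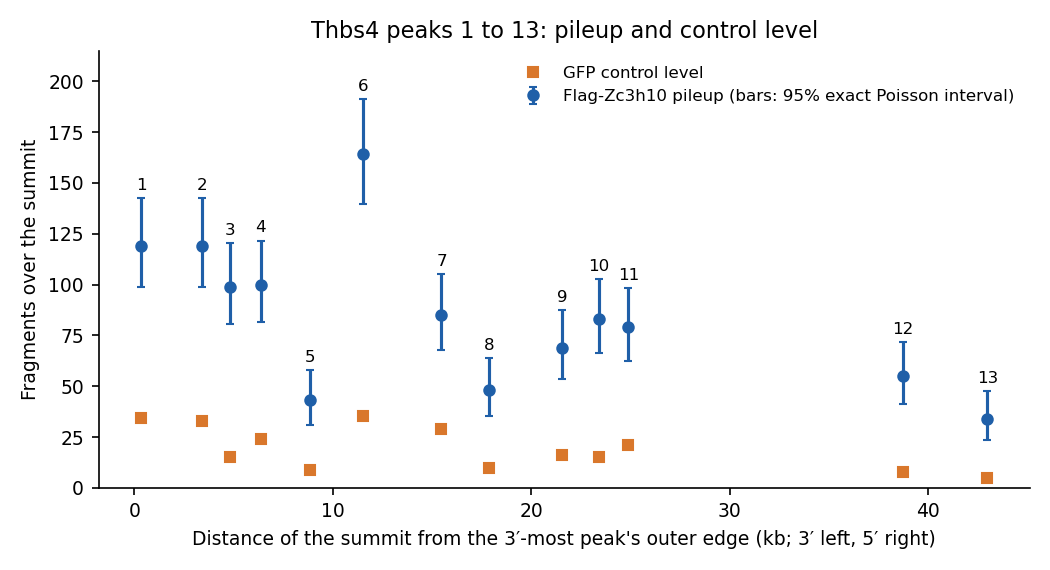
Fragments over the summit of each of the 13 Thbs4 peaks (vertical axis) against distance from the outer edge of the 3′-most peak (horizontal axis, kb). Circles are the Flag-Zc3h10 pileup with 95% exact Poisson intervals, and squares the GFP control level; peak 6 reaches 164 fragments, and peak 13 at the 5′ end has 34 over a control level of 4.81.

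At the called peaks, the only places with a level, both libraries tended to be higher towards the 3′ end. The order was not steady, since both were highest at peak 6. Across the 13 peaks, Spearman's rho with distance from the 3′ end was -0.69 for pileup and -0.64 for control level, and 0.52 for fold enrichment. Among the 11 peaks on the 3′ side these were -0.59, -0.40 and 0.22, so the relation with fold enrichment is small without peaks 12 and 13. Peaks of 1 gene share both libraries and may share transcripts, and these correlations are descriptions. The median pileup was 109.5 fragments over the first 4 peaks, 69 over peaks 5 to 9 and 67 over the last 4. The median control level was 28.4, 16.4 and 11.3. Median enrichment was 3.90-fold, 4.61-fold and 6.32-fold in the same order. The last of these joins peaks on both sides of the long gap, 5.56-fold and 3.73-fold at peaks 10 and 11, and 7.14-fold and 7.07-fold at peaks 12 and 13.

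The ratio of the libraries varied less than either library. The highest pileup was 4.82 times the lowest and the highest control level 7.40 times the lowest, while fold enrichment spanned 2.43 times. As coefficients of variation (CV, SD over mean) these were 0.43 for pileup, 0.55 for control level and 0.28 for fold enrichment. Pileup and control level varied together, with a rho of 0.91 over the 13 peaks. Summed over the summits, 1097 Flag-Zc3h10 fragments stood over a scaled control level of 254.45, a ratio of 4.31 (interval 3.77 to 4.96). The intervals of these sums treat the fragments of different peaks as distinct, which was not tested, and would be too narrow if peaks such as 1 and 2, of equal pileup, shared fragments. The counting interval of the fold enrichment held this ratio at 13 of the 13 peaks. That cannot show an even ratio, because the ratio was summed from the same peaks and the intervals are wide. They rest on 5 to 37 GFP fragments per peak. The pileups varied more than counting error, which alone would give a CV of 0.11. Their variance was 15.7 times their mean.

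**Figure D2:**
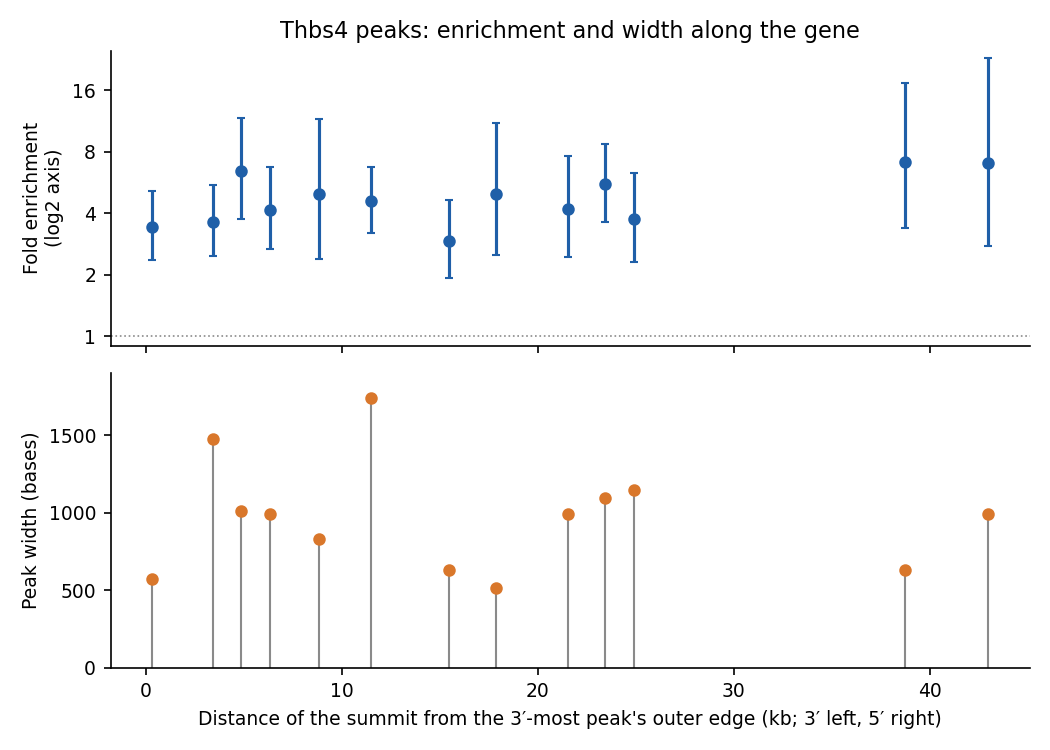
Fold enrichment with its 95% counting interval (upper panel, log2 axis) and peak width in bases (lower panel) for the 13 Thbs4 peaks, against distance from the outer edge of the 3′-most peak (kb). Enrichment runs from 2.94-fold at peak 7 to 7.14-fold at peak 12 with overlapping intervals, and width shows no order along the gene.

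Widths ran from 515 to 1739 bases around a median of 991, and width had a rho of 0.0028 with distance from the 3′ end. Together the peaks covered 12613 bases, or 29.0% of the 43472 bases from the first to the last. Summits of peaks 1 to 11 followed each other at 1431 to 3964 bases, with a median of 2436 and a CV of 0.37. With peaks 12 and 13 the CV was 0.95, because of the single step of 13837 bases between summits 11 and 12. The shortest gap between peak edges, 270 bases, lay between peaks 2 and 3.

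Set in the list as a whole, the Thbs4 peaks combined low counts with high ratios. Of the 13, 12 had a pileup below the list's median of 122 fragments and 13 a control level below its median of 50.9. Fold enrichment was above the list's median of 2.80 at 13 of 13. A deposited enrichment of at least 4-fold was found at 9 of the 13 peaks, against 26.0% of the list, and a −log10 q of at least 10 at 13, against 63.8%. Nothing is read from these shares, since the same contrast chose the peaks. Across the 947 peaks fold enrichment was higher at lower pileup (rho -0.61), so peaks of like height are the closer comparison. The 418 other peaks with 34 to 164 fragments had a median enrichment of 2.99-fold and quartiles of 2.24 and 4.33, and 12 of the 13 Thbs4 peaks lay above that median. Within the quartiles lay 6. Nothing is read from these counts either, since the peaks belong to 1 gene and the same contrast chose them. Among those 418 peaks, 35 (8.37%) were at least as enriched as peak 13. That share is not matched for height, since peak 13, at 34 fragments, lies at the lower edge of the range. Thbs4 held 35.1% of the 37 peaks on chromosome 13.

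Evenness was compared with the other loci of 5 or more peaks, joined over gaps of up to 10000 bases. There were 7 others, with 38 peaks, and at this joining Thbs4 entered with peaks 1 to 11. No test was made, since the loci are few and differ in their number of peaks. Thbs4 was the third most even of the 8 by the CV of pileup, 0.38. The 2 more even loci were chr15:36525092-36539108 (CV 0.19, 6 peaks of 472 to 791 fragments) and chr9:78179155-78189773 (CV 0.21, 5 peaks of 32 to 59 fragments). The next was chr2:51893625-51912438 at 0.53, and the least even chr12:81268196-81285933 at 1.28. By the highest pileup over the lowest, 3.81 at Thbs4, it was the fourth, after the same loci and chr2:51893625-51912438 (3.03).

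**Figure D3:**
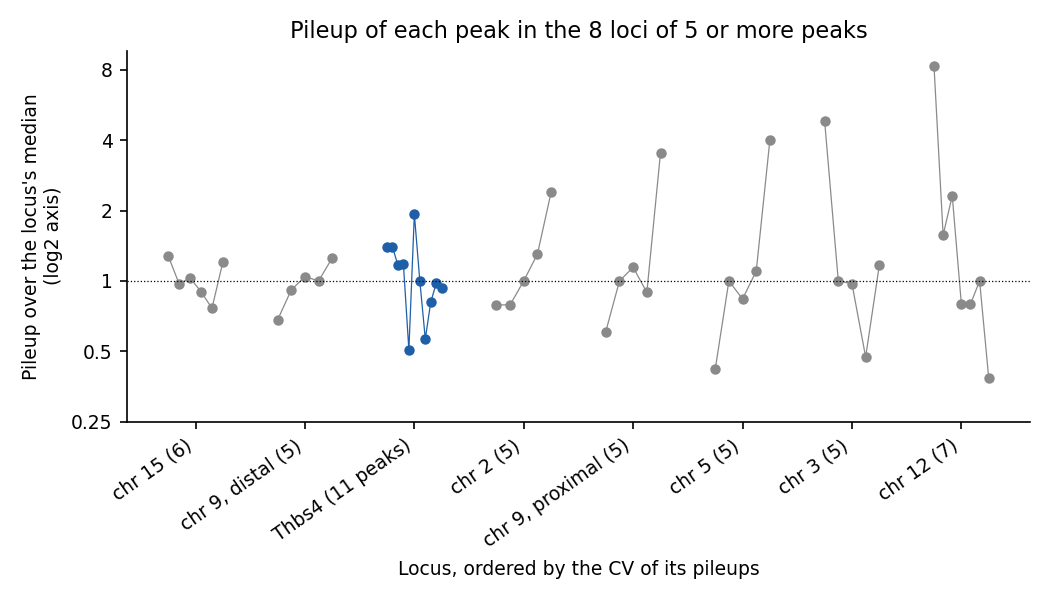
Pileup of each peak divided by the median of its locus (log2 axis) for the 8 loci of 5 or more peaks, in coordinate order within each locus, with the number of peaks in brackets. At Thbs4 (peaks 1 to 11) the highest peak lies inside the locus, while in each of the 7 others it is an outer peak; proximal and distal name the lower and higher position on chromosome 9.

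The place of the highest peak was another point of comparison. In each of the 7 other loci the highest pileup was at the first or last peak, and at Thbs4 it was peak 6, inside the joined locus. With 11 peaks an outer place is less likely than with 5 to 7, and the difference was not tested. In 5 of those 7 loci 1 outer peak held 38.2% to 57.2% of the summed pileup, as at chr3:80647553-80666432, where 174 fragments stood beside 17 to 42. Peak 6 held 16.3% of that of Thbs4. Relative to the mean of its locus, the highest peak was 1.79 times at Thbs4, 1.25 and 1.28 times at the chromosome 15 and distal chromosome 9 loci, and 1.91 to 3.83 times at the remaining 5. Which end of the other loci is a 3′ end was not determined.

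**Figure D4:**
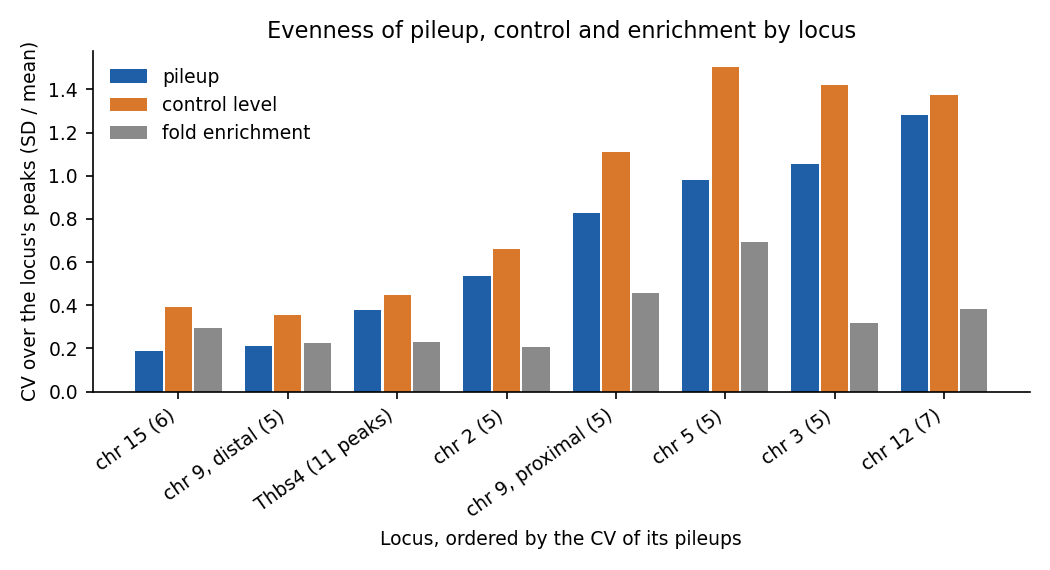
CV (SD over mean) of pileup, control level and fold enrichment over the peaks of each locus of 5 or more peaks, bars starting at 0. At Thbs4 (11 peaks) the bars are 0.38, 0.45 and 0.23; the control bar is above the pileup bar in each of the 8 loci.

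The control level was more uneven than the pileup in each of the 8 loci, with a CV of 0.45 at Thbs4 and 0.35 to 1.50 elsewhere. Control levels rest on fewer fragments than pileups, and the cause of the difference in CV was not tested. Fold enrichment was more even than pileup in 6 of the 8. Its CV at Thbs4 was 0.23, the third lowest, against 0.20 at chr2:51893625-51912438 and 0.23 at the distal chromosome 9 locus. The spacing of summits at Thbs4 was also the third most regular, with a CV of 0.37 against 0.19 to 0.71 elsewhere. Peaks covered 42.6% of the 25820 bases of the Thbs4 locus, the longest of the 8, and 27.1% to 56.5% of the others.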

How the data were processed

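The submitters' processing notes name TopHat2 2.0.6, MACS2 2.0.9 and the mm9 build. Per the file headers, the authors called peaks on 1 pair of libraries, Flag-Zc3h10 against GFP, at a q-value cutoff of 0.01, keeping at most 2 tags per position (32.6% and 30.3% of tags). The deposited signal is the pileup over each summit, the deposited fold enrichment its ratio to the local control level, and the deposited −log10 p and −log10 q the caller's own. Over the 13 peaks the deposited −log10 p lay within 0.0547 of a Poisson tail above the pileup at the control level.

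Peaks were joined over gaps of up to 10000 bases. Joining and CVs were tested on simulated data. Thbs4 was the only gene described, with every peak. The gene, the comparison and the lists were chosen with earlier results of these data known. Peaks of other thrombospondin and matrix genes were not assigned, because no mm9 annotation was used here. Alternatives varied thresholds, joining and the measure of evenness. Python 3.11.15, numpy 2.4.6, pandas 2.3.3, scipy 1.17.1 and matplotlib 3.10.9 were used.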

Additional observations from a re-analysis of the deposited data

How the results depend on the processing

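The 13 Thbs4 peaks stayed 13 where a −log10 q of 10 was required, and became 9 at 4-fold or more and 9 with gaps of up to 1000 bases merged. The CV of pileup, 0.43, was 0.52 over peaks of at least 4-fold and ran from 0.21 to 0.60 over runs of 5 consecutive peaks. That of the control level, 0.55, ran from 0.39 to 0.60 over such runs and was 0.58 with 1 added to pileup and control level in the ratio. Over the 11 peaks joined within 10000 bases, chosen after seeing the data, these were 0.38 and 0.45. The CV of spacing, 0.95, was 1.30 between peak edges and 0.37 over those 11 peaks. The rank of 3 among 8 loci stayed 3 of 7 with gaps of up to 5000 bases and 3 of 8 over runs of 5 peaks. It was 4 of 10 with gaps of up to 20000 bases (13 peaks), 4 of 14 with loci of 4 or more peaks and 4 of 8 by highest over lowest pileup. The cause of these shifts was not tested. No paired analysis was possible because only 1 library stands for each group. Depth limits most the ratios of peaks 12 and 13, which rest on 8 and 5 GFP fragments. Those of peaks 5 and 8 rest on little more, 9 and 10.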

Other observations

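Peaks 1 and 2 of Thbs4 had the same pileup, 119 fragments, although their summits lay 3078 bases apart, more than the 500 bases to which fragments were extended. Equal pileups of neighbours occurred elsewhere in the list. Among 234 pairs of neighbouring peaks within joined loci, 7 (2.99%) had equal pileups, and among 689 neighbouring pairs further apart on a chromosome 0 did, which allows a share of up to 0.435% (3 counts). The pairs were not matched for how alike their heights are. The share expected from counting error alone was not computed, so nothing is read from the difference. At 1 of the 7, on chromosome 7 at 321 fragments, the summits lay only 349 bases apart, less than the 500 bases of the extension. The other pairs included chr12:81278915-81279452 with chr12:81281955-81282506 at 89 fragments, 3057 bases between summits, and chr14:73913669-73914207 with chr14:73916457-73916996 at 122 fragments, 3155 bases between summits. Control levels within these pairs were close but not equal, 34.6 and 32.7 at Thbs4, 35.6 and 33.7 on chromosome 12, and 52.8 and 55.0 on chromosome 14. At another of the 7 pairs, of 23 fragments, the control levels were 5.78 and 2.79, the second being the genome-wide background. The cause of the equal pileups was not tested, and the alignments were not used here.

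Counting the control in whole GFP fragments was also possible outside Thbs4. Of 415 other peaks with a control level above background and a rounding tolerance under 0.1 fragments, 83.9% came to a whole number over 500 bases, at a median tolerance of 0.0217 fragments.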
